A study of Mus musculus with 6 samples.

Results

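Mouse miRNAs carry numbers in the order in which they entered the registry, so a high number marks a late entry. The rows described here are mature miRNAs whose name holds a number of 5000 or more and whose counts summed to at least 20 over 6 heart libraries. The table had 1966 rows, of which 829 carried such a number and 66 of those reached 20 counts. miR-6343, miR-6538 and miR-7225-5p were left out because they rose most strongly in TAC, which leaves 63 miRNAs. They were thus chosen by their total counts and, through the rows left out, selected on the contrast between the groups. For that reason the numbers of miRNAs called between the groups are given below as a description, and nothing is read from them.

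Small RNA was sequenced from whole hearts of 6 wild-type (WT) male mice. Their hearts were taken 8 weeks after transverse aortic constriction (TAC), in which a suture around the aorta loads the left ventricle with pressure, or after a sham operation without the constriction. Sham mice 47, 68 and 69 and TAC mice 29, 78 and 81 gave 1 library each. Strain and age were not given in the labels, and no batch was named.

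A canonical miRNA is cut from a hairpin by Drosha in the nucleus and by Dicer in the cytoplasm. A mirtron reaches Dicer by another route: a short intron is spliced out, is debranched and folds into the hairpin itself, so the splice sites set its ends. Most late registry entries came from deep sequencing, and they include many mirtron-like hairpins and many that have been seen at low counts only. The 5p and 3p arms of a hairpin are the left and right strands of its stem, and bases 2 to 8 of a mature miRNA, the seed, pair with target mRNAs.

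The sequences of the most abundant late-numbered miRNAs show that they do not form a family. They are written 5′ to 3′ as RNA from the RefSeq table for GRCm38.p6, the assembly of the count table (mm10), with the seed in capitals. For miR-5099 the hairpin is shown with the mature miRNA of the count table in capitals, and it lies at chr12:36816205-36816278 on the plus strand, between genes.
miR-5099 hairpin: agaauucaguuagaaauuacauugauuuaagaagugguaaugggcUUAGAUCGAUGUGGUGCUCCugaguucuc
miR-6240: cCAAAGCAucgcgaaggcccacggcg
miR-6239: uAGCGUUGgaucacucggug
miR-5100: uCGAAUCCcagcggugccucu
miR-6238: uUAUUAGUcaguggaggaaaug
miR-6236: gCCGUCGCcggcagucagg
miR-8114: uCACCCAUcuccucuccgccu
miR-8112: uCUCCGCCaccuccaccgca

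A second set carries the positional pattern described further down. In the 3p miRNAs of this set the last 2 bases are also in capitals, since they are the last bases of an intron. The 5p arm of miR-5132 is shown for comparison with its 3p arm.
miR-6944-3p: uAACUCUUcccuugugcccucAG
miR-7052-3p: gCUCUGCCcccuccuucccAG
miR-7068-3p: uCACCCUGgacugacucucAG
miR-7018-3p: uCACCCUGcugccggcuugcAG
miR-7083-3p: uCUGCUCUccuggaccccAG
miR-7019-3p: uCACCUUGgccgccucucugcAG
miR-5132-3p: cUGAUGUUccccaucccgcAG
miR-5132-5p: gCGUGGGGugguggacucagg

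A last set of 3 is shown because their values are described in the comparison between the groups further down.
miR-5126: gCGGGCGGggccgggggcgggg
miR-7225-3p: cUUCUAGAcagccucugcagca
miR-5121: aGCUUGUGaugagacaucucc

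A mature sequence was found in RefSeq for 51 of the 63 miRNAs, and the other 12 are named without one. miR-7068-3p and miR-7018-3p shared the seed CACCCUG. miR-6240 shared CAAAGCA with miR-330-3p, a row with 478 counts. No other of the 51 had a seed in common with a row of at least 20 counts, and no late-numbered miRNA was within 2 mismatches of another counted row. An exact match to a structural RNA of GENCODE M21, such as a ribosomal or small nucleolar RNA, was found for 3 of the 51. Nuclear tRNAs were not among the RNAs searched, and RNAs missing from that annotation could not be found. Whether other late-numbered miRNAs, the most abundant included, hold fragments of such RNAs was not tested.

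The late-numbered miRNAs were sparse. Library totals ran from 1226187 to 3509001 counts, so a count of 0 leaves room for up to 3 counts by counting error alone, which equal 0.855 to 2.45 CPM (counts scaled to the library total). Of the 829 rows with a number of 5000 or more, 432 had no count and 331 had 1 to 19. The 20-count minimum was reached by 7.96% of them, against 41.9% of rows numbered under 1000 and 14.6% of rows numbered from 1000 to under 5000. The median total of the 63 was 41 counts over 6 hearts, against 478 for the 347 rows numbered under 1000 that passed the same minimum. Rows just inside the minimum were miR-7679-5p with 20 counts and miR-6959-5p and miR-8101 with 21. Rows just outside were miR-7212-5p and miR-7240-5p with 19, and miR-7648-5p, miR-6392-5p and miR-7032-3p with 18.

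The 63 miRNAs together held 20174 counts. Their share of all counts was 0.148%, 0.206% and 0.153% for sham 47, 68 and 69, against 0.134%, 0.144% and 0.245% for TAC 29, 78 and 81. The means were 0.169% ± 0.0317 in sham and 0.174% ± 0.0615 in TAC (SD, n = 3). The groups overlapped, as they did after TMM scaling, and sham 68 and TAC 81 were the highest library of their group. Levels below are CPM scaled by TMM (trimmed mean of M values), group values are mean ± SD over 3 mice, and changes are log2 fold changes, TAC over sham, ± standard error. An adjusted p is from the edgeR quasi-likelihood test with Benjamini-Hochberg adjustment over all rows tested, and a miRNA is called higher or lower where it is under 0.05.

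miR-5099 alone held 43.7% of these counts, and the 8 most abundant held 84.7%. Its level was 709.6, 680.5 and 619.9 CPM in sham 47, 68 and 69, and 711.5, 718.5 and 813.1 CPM in TAC 29, 78 and 81. Every TAC heart was above every sham heart, with TAC 29 and sham 47 almost level. The mean was 670 ± 45.8 in sham and 748 ± 56.7 in TAC, a log2 change of 0.16 ± 0.11 that was not called (adjusted p = 0.267, edgeR). With library totals in place of TMM the direction turned (log2 -0.15), and the groups overlapped at 699.1 to 790.5 CPM in sham and 651.8 to 705.4 CPM in TAC.

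miR-6239 was the most abundant late-numbered miRNA that was called. Its 20 bases lie at chr14:117953768-117953787 on the minus strand, antisense to Gpc6, which encodes a glypican, a heparan sulfate proteoglycan of the cell surface. The level was 113.1, 128.1 and 101.5 CPM in sham 47, 68 and 69, and 153.7, 173.4 and 184.2 CPM in TAC 29, 78 and 81. All 3 TAC hearts stood above all 3 sham hearts. The rise from 114 ± 13.3 to 170 ± 15.5 CPM was 1.49-fold (log2 0.58 ± 0.15, adjusted p = 0.0228, edgeR). The direction held in all 16 alternative analyses, but the call was lost in 9 of them. Among those 9 were scaling by library totals (0.27, adjusted p = 0.201, edgeR) and leaving out sham 47, sham 69, TAC 78 or TAC 81 (adjusted p from 0.0556 to 0.0811, edgeR).

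miR-5100 lies in an intron of Mief2, which encodes a mitochondrial outer membrane adaptor for the fission protein Drp1, at chr11:60728698-60728718 on the plus strand. It stood at 104.9, 84.4 and 141.1 CPM in sham 47, 68 and 69, and at 85.3, 104.9 and 114.7 CPM in TAC 29, 78 and 81. The groups overlapped (log2 -0.12 ± 0.21, adjusted p = 0.671, edgeR).

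A pair of abundant miRNAs lay in the untranslated first part of a gene. miR-8114 lies in the 5′ UTR of Glul, the glutamine synthetase gene, at chr1:153899989-153900009 on the plus strand, and had 39.6, 49.2 and 77.2 CPM in sham and 73.2, 84.0 and 63.0 CPM in TAC. These ranges overlapped (log2 0.41 ± 0.25, adjusted p = 0.232, edgeR). miR-8112 lies in the 5′ UTR of Krcc1 and antisense to Smyd1, a methyltransferase gene of striated muscle, at chr6:71271745-71271764 on the plus strand. Its levels were 47.1, 62.8 and 49.0 CPM in sham and 62.9, 72.6 and 67.7 CPM in TAC, in the same order of animals. The TAC hearts were above the sham hearts, with TAC 29 and sham 68 almost level, and the change was not called (log2 0.36 ± 0.17, adjusted p = 0.141, edgeR). Scaled by library totals, the log2 change was 0.05 (adjusted p = 0.84, edgeR).

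miR-5621-3p, in an intron of Tmem94 and named after its values were seen, was the last of the 9 that averaged 20 CPM or more. It had 25.3, 25.1 and 23.5 CPM in sham and 28.4, 39.0 and 44.2 CPM in TAC. The TMM-scaled groups did not overlap, and the test fell just short of the threshold (log2 0.58 ± 0.20, adjusted p = 0.0511, edgeR). Scaled by library totals, the log2 change was smaller at 0.27 (adjusted p = 0.301, edgeR). The other 54 had means from 1.06 to 14.2 CPM.

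**Figure D1:**
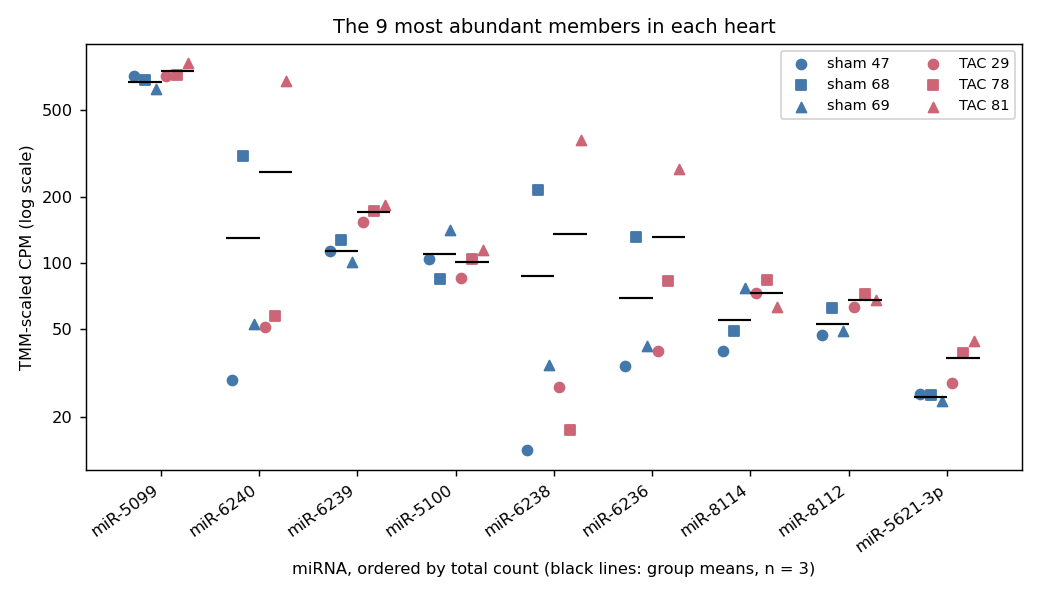
TMM-scaled CPM on a log axis in each of the 6 hearts for the 9 late-numbered miRNAs that averaged 20 CPM or more; blue marks are sham, red marks are TAC, and black lines are group means (n = 3). miR-6240, miR-6238 and miR-6236 were highest in sham 68 and TAC 81, while the other 6 spread by 1.31- to 2.12-fold between their lowest and highest heart.

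miR-6240, miR-6238 and miR-6236 were high in the same 2 hearts, 1 of each group. All 3 lie between annotated genes, at chr5:114851973-114851998 (plus), chr7:53891796-53891817 (minus) and chr9:110281353-110281371 (plus). miR-6240 was counted at 29.4, 306.8 and 52.9 CPM in sham 47, 68 and 69, and at 51.4, 57.8 and 672.1 CPM in TAC 29, 78 and 81. miR-6238 was counted at 14.1, 214.9 and 34.5 CPM in sham and at 27.2, 17.5 and 362.8 CPM in TAC. For miR-6236 the values were 34.0, 131.6 and 41.9 CPM in sham and 39.9, 83.3 and 269.8 CPM in TAC. In each of them sham 68 was the high sham library and TAC 81 the highest of all 6.

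This pattern was uncommon in the table. Among the 474 rows with at least 20 counts, 17 had both sham 68 and TAC 81 above the other 4 libraries. In 2 rows, miR-6238 and miR-6240, the lower of those libraries was at least 2-fold above the highest of the other 4 (6.23-fold and 5.31-fold), and in miR-6236 it was 1.58-fold above. The third largest excess was that of miR-7679-5p at 1.80-fold, a row with 20 counts in all. The comparison is between single libraries, so it has no replicate error. Neither direction nor size of the difference between groups was steady for these 3: the log2 changes were 1.01 ± 1.08, 0.63 ± 1.19 and 0.92 ± 0.70 for miR-6240, miR-6238 and miR-6236 (adjusted p = 0.485, 0.686 and 0.317, edgeR). Without TAC 81 they became -1.24, -1.95 and -0.16.

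The same 3 miRNAs set the spread of the summed share. They held 0.00864%, 0.0715% and 0.0146% of all counts for sham 47, 68 and 69, against 0.0109%, 0.0144% and 0.113% for TAC 29, 78 and 81. Without them the late-numbered miRNAs held 0.140%, 0.134% and 0.139% in sham and 0.123%, 0.129% and 0.132% in TAC. The means were then 0.137% ± 0.00307 and 0.128% ± 0.00445, with every TAC library just below every sham library. These shares are of raw library totals, and the order turns with TMM scaling. The same miRNAs then summed to 1254, 1223 and 1230 CPM in the sham hearts and 1337, 1424 and 1518 CPM in the TAC hearts, every TAC heart above every sham heart.

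Position in the genome set many of the less abundant late-numbered miRNAs apart from older entries. By the GENCODE M21 annotation, 34 of the 63 lay in introns only, 20 in an exon of at least 1 transcript, 5 antisense to a gene and 4 between genes. Each had 1 genomic place, and none overlapped a counted row on the opposite strand. For 21 of the 63 (33.3%) the last base of the mature miRNA was the last base of an annotated intron. The same held for 0 of the 347 rows numbered under 1000 and for 2 of the 42 numbered from 1000 to under 5000 (4.76%), all with at least 20 counts. It held for 147 of the 763 late-numbered rows under 20 counts (19.3%). Rows are not samples, so these shares are given without a test.

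**Figure D2:**
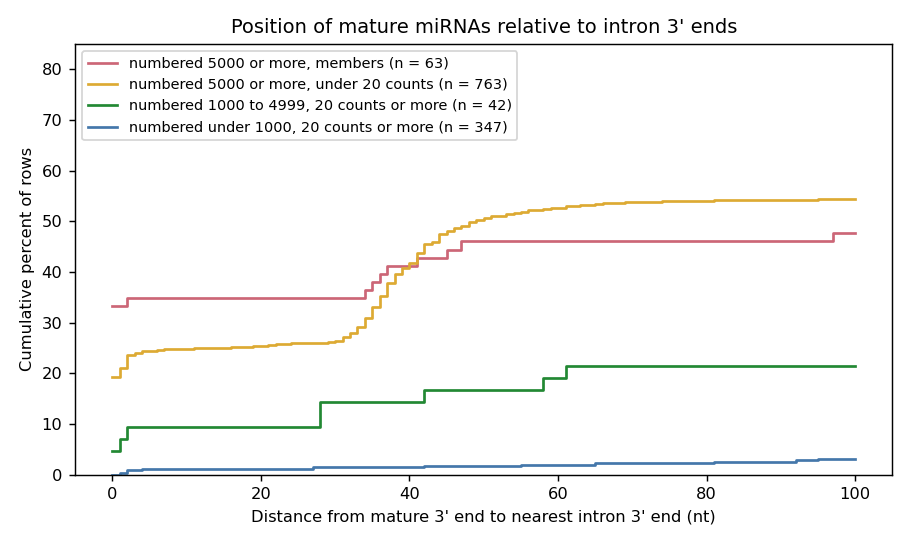
Cumulative percent of rows (y axis) whose mature 3′ end lies within a given distance in nt (x axis) of the nearest annotated intron 3′ end, for 4 sets of rows. The line of the 63 late-numbered miRNAs starts at 33.3% at distance 0, that of late-numbered rows under 20 counts at 19.3%, and that of rows numbered under 1000 at 0.

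All 21 were 3p arms. Their introns were 74 to 1833 nt long, and 12 were under 100 nt. Introns end on AG at nearly every splice site, and the 17 of these miRNAs with a sequence in RefSeq all ended on AG, as printed above for 7 of them. Among the other 34 late-numbered miRNAs with a sequence, 1 ended on AG, and among the 306 of the rows numbered under 1000 the share was 6.21%. The 17 were chosen for their place at an intron end, so their AG follows from that choice and is not a separate result. Pyrimidines, which are dense ahead of a 3′ splice site, made up a median of 69.6% of the bases in the 17 (range 61.9% to 81.0%). The median in the other 34 was 46.4%, with a wider range (21.7% to 90.5%) that spans that of the 17. The choice of miRNAs at intron ends favours pyrimidines too, so this difference is not a separate result either.

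The GC content of all 51 sequences had a median of 60.9% and ran from 36.4% to 100%. The median was 47.9% for rows numbered under 1000 and 40.9% for let-7. It was 54.5% for late-numbered rows under 20 counts and 58.3% for rows numbered from 1000 to under 5000. A high GC content was thus not particular to the late-numbered miRNAs.

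miR-6954-3p was the most abundant of the intron-end set, with 169 counts over the 6 libraries. It ends with an intron of Mroh1 of 875 nt, at chr15:76433253-76433273 on the plus strand. Its level was 12.02, 6.03 and 14.5 CPM in sham 47, 68 and 69, and 17.6, 16.1 and 18.8 CPM in TAC 29, 78 and 81. The TMM-scaled groups did not overlap, and the change was not called (log2 0.65 ± 0.31, adjusted p = 0.143, edgeR). Scaled by library totals, the log2 change was 0.34 (adjusted p = 0.446, edgeR).

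miR-7052-3p ends with a 239 nt intron of Josd2, a deubiquitinase gene, at chr7:44470391-44470411 on the plus strand. It had 10.5, 8.54 and 11.8 CPM in sham and 16.3, 12.8 and 10.3 CPM in TAC. The ranges overlapped (log2 0.37 ± 0.27, adjusted p = 0.307, edgeR). miR-7068-3p fills the end of a 74 nt intron of Cherp, whose product acts in calcium release from the endoplasmic reticulum, at chr8:72470016-72470036 on the minus strand. Its values were 7.42, 3.52 and 3.53 CPM in sham and 7.87, 12.1 and 5.64 CPM in TAC, again with overlap (log2 0.77 ± 0.44, adjusted p = 0.207, edgeR).

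miR-6980-3p, at the end of an 81 nt intron of Arap3, had 75 counts and did not pass the expression filter of the test. Only 1 sham and 1 TAC library reached the filter level of 5.53 CPM of library totals. Some miRNAs with fewer counts passed, since the filter asks for that level in several libraries. miR-7083-3p, at the end of a 1833 nt intron of Dock6 at chr9:21809941-21809960 on the minus strand, had 70 counts and was not tested either. Sham hearts gave 26, 7 and 20 of these counts, TAC hearts gave 8, 5 and 4, and the CPM values overlapped. A pair of the hosts of this set were picked by theme, as they encode proteins well known in heart and muscle biology. One is Pink1, the mitochondrial kinase of mitophagy, which holds miR-7019-3p. The other is Hspg2, the basement membrane proteoglycan perlecan, which holds miR-7018-3p, a row of 39 counts that was not tested.

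miR-7019-3p (chr4:138316132-138316154, minus strand) was named after its values were seen. It had 2.56, 3.01 and 6.27 CPM in sham and 6.66, 7.39 and 9.40 CPM in TAC. The TMM-scaled groups did not overlap, with TAC 29 close to sham 69, and the change was not called (log2 0.98 ± 0.45, adjusted p = 0.124, edgeR). Scaled by library totals, the log2 change was 0.675 (adjusted p = 0.282, edgeR).

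The 3p arm was the larger one in 19 of these 21 hairpins, with 1152 counts against 270 on the 5p arms. The minimum of 20 counts was asked of the 3p arm alone, which favours it, so the tally was repeated with the minimum set on the sum of both arms. This was added after seeing the data. It took 24 late-numbered hairpins whose 3p arm ends at an intron end, and the 3p arm was larger in 19 and the 5p arm in 5. The 3p arms held 1171 counts and the 5p arms 337, or 77.7% on the 3p side. The 5p arm had no count in 6 of the 21, namely miR-6989, miR-7043, miR-6968, miR-6988, miR-7015 and miR-7035, which are listed for that reason alone. In miR-7052 the 3p arm held 98.0% of the counts (exact binomial 95% interval 94.2% to 99.6%), and in miR-6954 it held 94.4% (90.0% to 97.3%). Such intervals cover counting error only.

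**Figure D3:**
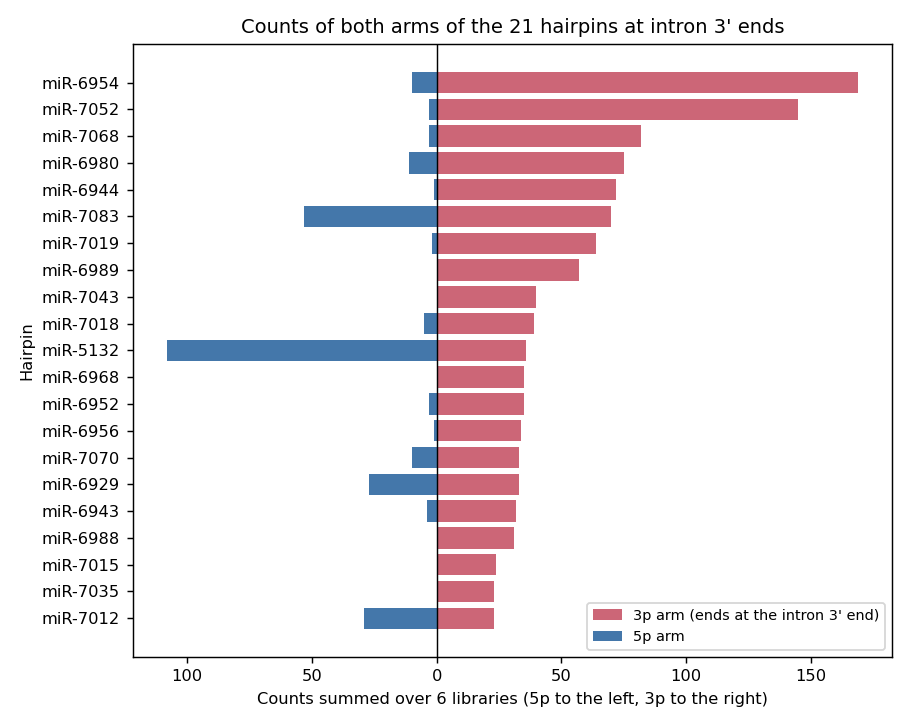
Counts summed over 6 libraries of the 5p arm (blue, to the left) and the 3p arm (red, to the right) of the 21 hairpins whose 3p arm ends at an intron 3′ end. The 3p arm is the longer bar except in miR-5132 and miR-7012.

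miR-5132, in a 76 nt intron of Irak1, the interleukin-1 receptor-associated kinase, was the clearest exception. Its 5p arm held 108 counts and its 3p arm 36, so 25.0% of the counts were 3p (exact interval 18.2% to 32.9%). The share was below the 5p share in every heart, from 7.14% in TAC 29 to 38.5% in TAC 78. Its 5p arm stood at 11.5, 6.53 and 7.05 CPM in sham and 7.87, 5.38 and 10.3 CPM in TAC, with full overlap (log2 -0.17 ± 0.37, adjusted p = 0.732, edgeR).

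In 5 other hairpins both arms passed 20 counts. That requirement keeps the 3p share of a sparse hairpin near the middle, so the shares are given as a description. The 3p arm held 53.5% of the counts of miR-7680 (46.3% to 60.6%), which lies in an intron of the long noncoding RNA gene Gm16863. It held 56.9% in miR-7083 (47.7% to 65.8%), 55.0% in miR-6929 (41.6% to 67.9%) and 44.2% in miR-7012 (30.5% to 58.7%). miR-6516 had 47.4% (34.0% to 61.0%). Both of its arms match the small Cajal body RNA Gm26083, in the host gene Snhg20, so its counts cannot be separated from fragments of that RNA.

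Summed over the 21 miRNAs, the intron-end set had 85.7, 76.3 and 104.2 CPM in sham 47, 68 and 69, and 95.0, 99.5 and 88.4 CPM in TAC 29, 78 and 81. The TAC values lay within the sham range. The means were 88.8 ± 14.2 and 94.3 ± 5.59 CPM. As shares of raw totals they lay the other way, at 0.00989% ± 0.00172 in sham and 0.00848% ± 0.000717 in TAC, again with overlap. With every row of at least 20 counts tested, 8 of the 21 were higher and 13 lower in sign, with a median log2 change of -0.18, beside a median of 0.00 over all 474 rows.

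For comparison, 3 mirtron hairpins with older numbers were looked at, miR-877, miR-702 and miR-1224. miR-877-5p, from an intron of Abcf1, had counts of 151, 86 and 102 in sham hearts against 44, 62 and 38 in TAC hearts (log2 -0.23 ± 0.19, adjusted p = 0.360, edgeR). miR-877-3p ended 1 nt from the annotated intron end and had 238 counts (-0.46 ± 0.28, adjusted p = 0.229, edgeR). miR-702-3p ended 2 nt from the end of an intron of Plod3 and had 242 counts (-0.18 ± 0.28, adjusted p = 0.619, edgeR). miR-1224-5p had 5 counts and miR-1224-3p none.

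In the comparison of TAC with sham, 23 of the 63 miRNAs passed the expression filter, with 52 to 8821 counts each. edgeR called 3 of them, and 30.5% of all 354 rows tested. miR-5126 and miR-6239 were higher (19.2% of all rows) and miR-6944-3p was lower (11.3% of all rows). The other 20 had log2 changes from -1.17 to 1.01. The split of 2 higher and 1 lower became 2 and 2 with RLE size factors, and 1 and 2 with upper quartile factors or library totals. With the 3 left-out miRNAs put back, 26 were tested and 5 were higher, so the removal of those rows lowers the number of rises. The values of the left-out rows were 33.9 ± 31.4 CPM in sham and 422 ± 113 CPM in TAC for miR-6538. For miR-6343 they were 4.81 ± 7.07 and 82.5 ± 9.51 CPM, and for miR-7225-5p 5.89 ± 5.31 and 49.8 ± 5.65 CPM.

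The remaining 40 had 20 to 75 counts and no more than 26 in any library. When every row with at least 20 counts was tested instead, 3 of the 63 were called (20.3% of 474 rows), miR-5126 and miR-7225-3p higher (10.8% of rows) and miR-6944-3p lower (9.49% of rows). The log2 changes were positive in 33 and negative in 30, with a median of 0.02. In 46 of the 63 the groups overlapped, and in the others they did not, which held for 43.2% of the 474 rows. All TAC hearts were above all sham hearts in 14 of them (25.5% of rows) and below in 3 (17.7% of rows). Scaled by library totals, all TAC hearts were above in 6 (11% of rows) and below in 5 (29.3% of rows). Scaling by library totals in place of TMM moved the median change of all tested rows from 0.07 to -0.24, so small changes depend on the scaling.

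**Figure D4:**
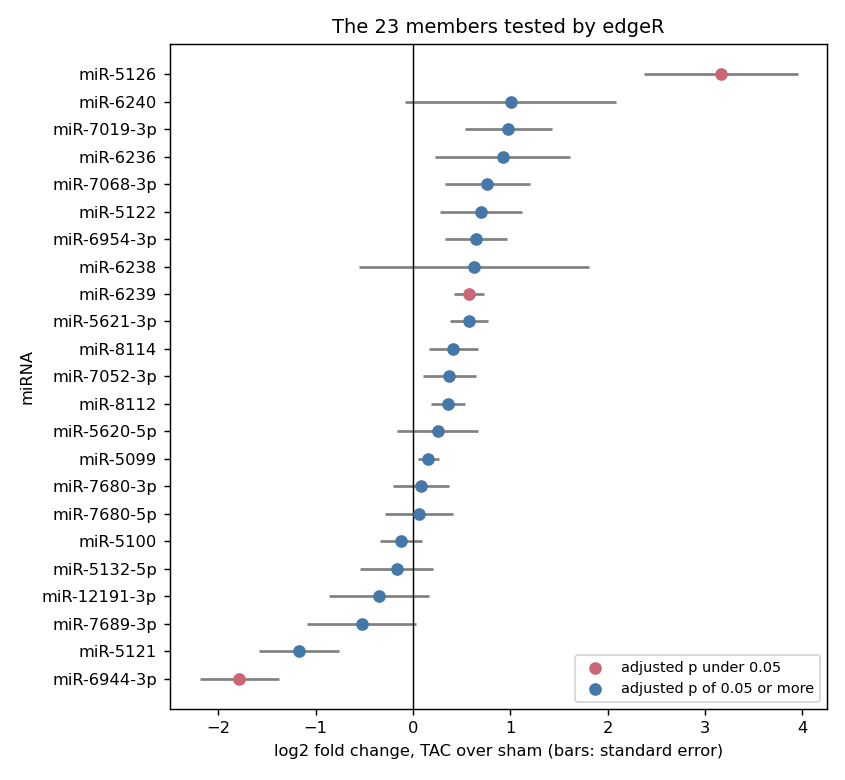
log2 fold change, TAC over sham, with its standard error for the 23 late-numbered miRNAs tested by edgeR; red points had an adjusted p under 0.05. miR-5126 and miR-6239 lie to the right at 3.16 and 0.58, miR-6944-3p lies to the left at -1.78, and the bars of miR-6240 and miR-6238 are the widest.

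miR-5126 had the largest log2 change among the 23. It consists of G and C alone and lies at chr1:84695890-84695911 on the plus strand, antisense to Dner, a Notch ligand gene. It was counted 1, 0 and 8 times in sham 47, 68 and 69, and 13, 22 and 8 times in TAC 29, 78 and 81. In CPM these are 0.256, 0 and 3.13 against 7.87, 14.8 and 7.52, so every TAC heart was above every sham heart. It rose from 1.13 ± 1.74 to 10.1 ± 4.10 CPM (log2 3.16 ± 0.79, adjusted p = 0.0178, edgeR). No sham library reached the filter level of 5.53 CPM, so it entered the test through the TAC libraries and had to differ. The change was 5.45 without sham 69. The call was lost without TAC 78 (2.77, adjusted p = 0.0677, edgeR) and without sham 68 and TAC 81 together (2.89, adjusted p = 0.0580, edgeR).

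miR-7225-3p, named after its values were seen, is the opposite arm of the left-out miR-7225-5p and lies in the 3′ UTR of a transcript of Pde4dip, the myomegalin gene, at chr3:97690509-97690530 on the minus strand. The sham hearts gave 3, 0 and 4 counts and the TAC hearts 5, 7 and 7, or 0.767, 0 and 1.57 against 3.02, 4.71 and 6.58 CPM. The TAC hearts stood above the sham hearts at 4.77 ± 1.78 against 0.778 ± 0.784 CPM. It was too sparse for the main filter and was called with the 20-count filter (log2 2.35 ± 0.70, adjusted p = 0.0429, edgeR). The other arm chose this hairpin for its rise, so the direction of this arm is not an independent observation.

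miR-6944-3p moved the other way. It ends with a 96 nt intron of Dbn1, the gene of the actin-binding protein drebrin, at chr13:55477681-55477703 on the minus strand. Sham 47, 68 and 69 gave 27, 15 and 21 counts, against 3, 4 and 2 for TAC 29, 78 and 81. That is 6.91, 7.53 and 8.23 CPM against 1.81, 2.69 and 1.88 CPM, with a wide gap between the groups. It fell from 7.56 ± 0.661 to 2.13 ± 0.487 CPM, 3.44-fold lower in TAC (log2 -1.78 ± 0.41, adjusted p = 0.0125, edgeR). No TAC library reached the filter level, so the sham libraries alone brought it into the test and it had to differ. It was called in 14 of the 15 alternatives that gave it an adjusted p, and was not called without sham 68 and TAC 81 together (-1.75, adjusted p = 0.0649, edgeR). Most of these alternatives used the same filter, and all used counts of the same hearts, so the tally is not separate support. Its 5p arm held 1 count in all.

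miR-5121 and miR-7224-3p, both named after their values were seen, were the other rows with all TAC hearts below all sham hearts. miR-5121 lies at chr7:45126925-45126945 on the minus strand within Snord33, a small nucleolar RNA in the ribosomal protein gene Rpl13a. Its sequence is part of that RNA, so fragments of Snord33 would be counted with it. The levels were 10.2, 6.03 and 10.6 CPM in sham and 5.45, 2.69 and 3.76 CPM in TAC (log2 -1.17 ± 0.41, adjusted p = 0.0548, edgeR). It passed the filter through the sham libraries alone, was not called in the main test and was called in 7 of 16 alternatives.

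miR-7224-3p, in an intron of B3galt1, had counts of 26, 10 and 18 in sham hearts against 6, 2 and 2 in TAC hearts. With the 20-count filter its log2 change was -1.45 ± 0.46 (adjusted p = 0.0534, edgeR). miR-8117, also named after its values were seen, had 23 of its 24 counts in sham 47 and none in 4 libraries.

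**Figure D5:**
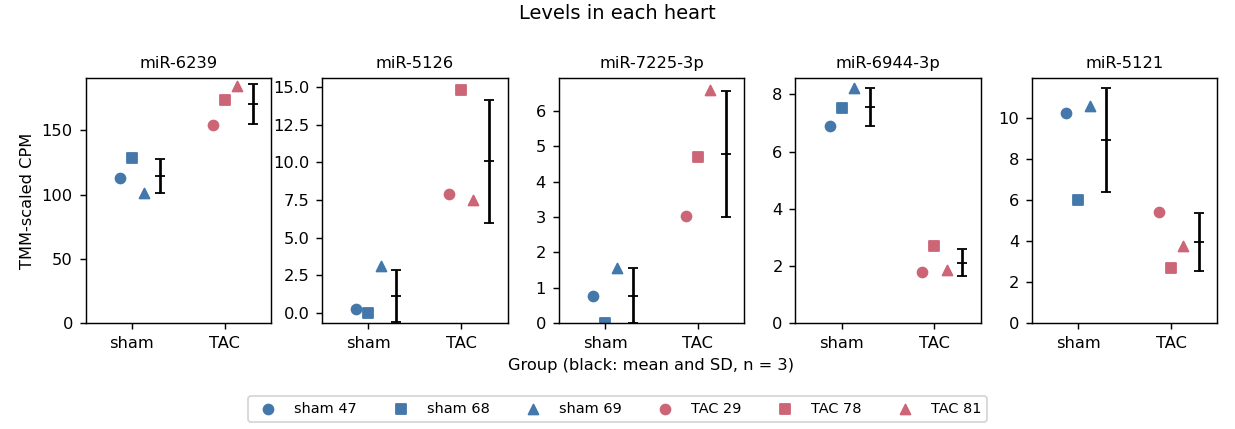
TMM-scaled CPM of 5 late-numbered miRNAs in each heart, sham in blue and TAC in red, with the group mean and SD in black (n = 3); each panel has its own axis. In every panel the groups are apart: miR-6239, miR-5126 and miR-7225-3p lie higher in TAC, and miR-6944-3p and miR-5121 lie lower.

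In whole hearts, fewer cells of a type and less RNA per cell cannot be told apart. All 4 heart muscle markers (miR-1a-3p, miR-133a-3p, miR-208a-3p and miR-499-5p) were called higher in TAC by edgeR, with summed levels of 151800 to 183100 CPM in sham and 273500 to 325900 CPM in TAC. Both mesenchymal markers (miR-199a-3p and miR-214-3p) were called lower, from 11360 to 18590 CPM in sham and 10170 to 10370 CPM in TAC. In the smooth muscle list 1 of 2 was higher, at 34120 to 42680 CPM in sham and 58690 to 61690 CPM in TAC. In the red blood cell list 1 of 2 was higher, at 963 to 1123 and 1598 to 2996 CPM. In the leukocyte list 1 of 3 was higher, at 109 to 125 and 203 to 208 CPM. The liver marker miR-122-5p was at 0 in all libraries. The neuron list (miR-124-3p and miR-9-5p) summed to 0 to 1.54 CPM in sham and 0 to 2.02 CPM in TAC, with miR-9-5p at 0 in all libraries. The part of these cell types in the differences above was not tested.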

How the data were processed

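Values are read counts of mature miRNAs, whole numbers in 1 table that the authors deposited, with 1 column for each animal. The submitters' processing notes list mm10, StringTie, HISAT2 and DESeq2 but no role or version. How reads were counted, and whether by strand, is not given in the sources used here. Per the labels' protocols, a Vazyme kit was used for RNA and a company prepared the libraries. All columns matched a mouse (0 left over), so each p-value rests on separate mice, 3 per group.

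Counts were tested with edgeR 4.0.16 in R 4.3.3 (quasi-likelihood, TMM, filterByExpr, Benjamini-Hochberg), fitted on the whole table and checked on simulated counts. Alternatives were DESeq2 1.42.0, limma-voom (limma 3.58.1), other scalings and filters, division by genomic places and leaving out each mouse; those without named miRNAs or without sham 68 and TAC 81 together, TMM scaling of shares, library totals for overlap, and a minimum over both arms were added after seeing the data. Intervals came from scipy 1.17.1. Places came from GENCODE M21, on the same assembly.

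The miRNAs and lists were chosen with earlier results of these data known. Named miRNAs were those called, the 8 most abundant, hairpins with both arms present, the totals nearest the minimum, up to 6 within 3 nt of an intron end by total count, and the 3 left out; others are marked where named.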

Additional observations from a re-analysis of the deposited data

How the results depend on the processing

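Of the late-numbered miRNAs, edgeR tested 23 and called 2 higher and 1 lower in TAC. The 20-count filter and no filter each tested 63. DESeq2 was fitted to all 63 but gave no adjusted p for miR-6240 and miR-6944-3p. Leaving out 1 mouse tested 24 to 27. The number called higher was 1 with upper quartile factors, 1 with library totals, 4 with no filter and 0 without sham 68 and TAC 81 together; leaving out 1 mouse gave 0 to 3, with 0 without TAC 78 and 1 without sham 47 or TAC 81. The number called lower was 0 with DESeq2, 2 with RLE size factors, 2 with upper quartile factors, 2 with library totals, 4 with no filter, 2 with counts divided by places, 2 without miR-6236, miR-6238 and miR-6240, and 0 without sham 68 and TAC 81 together; leaving out 1 mouse gave 1 to 2. An unadjusted p under 0.05 was found for 6 miRNAs with DESeq2, which gave miR-6944-3p no adjusted p, for 3 with edgeR without TAC 78, and for 7 with edgeR without sham 68 and TAC 81. The cause of these shifts was not tested, other than that a changed filter changes how many rows are tested and that a row without an adjusted p cannot be called. The log2 change reversed for miR-5099 with library totals (-0.15) and no filter (-0.0004), for miR-6238 without sham 68 and TAC 81 together (-0.084), for miR-5100 without sham 69, and for miR-6240, miR-6238 and miR-6236 without TAC 81. Leaving out 1 mouse gave -0.26 to 0.087 for miR-5100, -1.24 to 2.71 for miR-6240, -1.95 to 2.53 for miR-6238 and -0.16 to 1.81 for miR-6236; the cause was not tested. Without a filter miR-6240 and miR-6236 were called (adjusted p = 4.287e-05 and 0.00168, edgeR). Leaving out sham 69 gave calls for miR-8114 (0.73, adjusted p = 0.0339, edgeR) and miR-7019-3p (1.45, adjusted p = 0.0480, edgeR), and leaving out TAC 29 gave one for miR-5621-3p (0.74, adjusted p = 0.0222, edgeR). miR-6954-3p, miR-7052-3p, miR-7068-3p and miR-8112 kept a positive sign and were not called in any of the 16 alternatives. The difference in the summed share, 0.00513 percentage points, ran from -0.0302 to 0.0252 when 1 mouse was left out; without miR-6236, miR-6238 and miR-6240 it was -0.00945, and 0.0191 with TMM scaling as well. Low depth limits most of these miRNAs, since a median total of 41 counts leaves a few counts per heart. No paired analysis was possible because the labels give the groups no shared replicate numbers.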
